A study of Macaca fascicularis with 86 samples.

Results

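Sections 6 and 7 of an E20 crab-eating macaque embryo (Macaca fascicularis) were compared with 2 embryos of the same species at E18. They gave 8 laser-captured regions of the 86 in the series, 4 sectors in each section. The E18 embryos gave 50 regions, 15 from 4 sections of embryo 1 and 35 from 6 sections of embryo 2. All embryos were gastrulating, untreated as far as the labels say, and were sectioned frozen, and each region held 5 to 50 cells (Geo-seq, sequencing of polyadenylated RNA from microdissected tissue). Another 28 regions, from sections 1 to 5 of the E20 embryo, were left out. Sections 6 and 7 were singled out with measured values known, since in earlier results of these data they carried epiblast genes and few yolk sac genes, also beside E18. The contrast with E18 is therefore a description, given with no test. There was 1 embryo at E20, so stage, embryo and plane of section cannot be told apart, and the labels name no tissue and no direction of numbering. The sample titles give no sex, so a difference in sex between the embryos cannot be told apart from stage either.

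At these stages the embryo is a disc of pluripotent epiblast under the amnion, with hypoblast and yolk sac endoderm below it and a loose extraembryonic mesenchyme around it. During gastrulation epiblast cells enter the primitive streak, switch on factors such as EOMES, TBXT and MIXL1, and leave it as mesoderm and definitive endoderm. SOX2 is a transcription factor of the epiblast and of neural progenitors, and H2AC14 encodes a core histone of the kind made in S phase for newly copied DNA.

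The values were TPM (a share of the reads scaled for gene length), and differences are given as log2(TPM + 1), which understates the change of low genes. Read depth cannot be recovered from TPM. Genes at 1 TPM or more numbered 10046 to 10950 in the 8 E20 regions, 7815 to 11516 in E18 embryo 1 and 11091 to 13958 in E18 embryo 2. Mitochondrially encoded genes held 9.82% to 28.8% of the summed TPM at E20, 8.91% to 40.6% in embryo 1 and 13.3% to 48.8% in embryo 2. Both measures were higher in E18 embryo 2, and the median gene lay 0.42 higher there than in embryo 1. One E18 region stood apart, sector 5 of section 3 of embryo 1, with a summed TPM of 3479 over 13 genes of maternal immune and decidual cells. The next region of that embryo had 318, and the E20 regions had 33.3 at most. Where a call of a gene named here was lost without this region, that is said.

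The 8 regions held several tissues. Listed epiblast genes had mean levels of 5.44, 5.27 and 5.23 in sectors 1 to 3 of section 6 and of 6.02, 4.91 and 5.68 in those of section 7, against 3.19 and 2.18 in the sector 4 regions (mean log2(TPM + 1) of 19 genes). The sector 4 regions instead had the highest levels of amnion and surface ectoderm genes, 6.07 and 5.73, and of extraembryonic mesenchyme genes, 6.31 and 6.37. Sections 6 and 7 thus cannot all be called epiblast disc: 6 regions carried the epiblast genes strongly, and the sector 4 regions carried mainly amnion and mesenchyme genes. The primitive streak list reached 4.29 in sector 2 of section 6 and 5.81 in sector 3 of section 7, and 2.49 or less in the other 6 regions. Sector 3 of section 6 and sector 2 of section 7 combined the epiblast genes with amnion levels of 4.22 and 4.17 and mesenchyme levels of 4.43 and 5.05. The yolk sac list, one of those on which the sections were chosen, lay between 0.36 and 1.12. It reached 5.06 in E18 embryo 1 (median 1.06) and 2.63 in embryo 2 (median 1.31). In embryo 1 its summed TPM was highest, at 6232, in the region rich in maternal genes, and 3830 in the next region. In such bulk regions fewer cells of a type and less RNA per cell cannot be told apart.

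**Figure D1:**
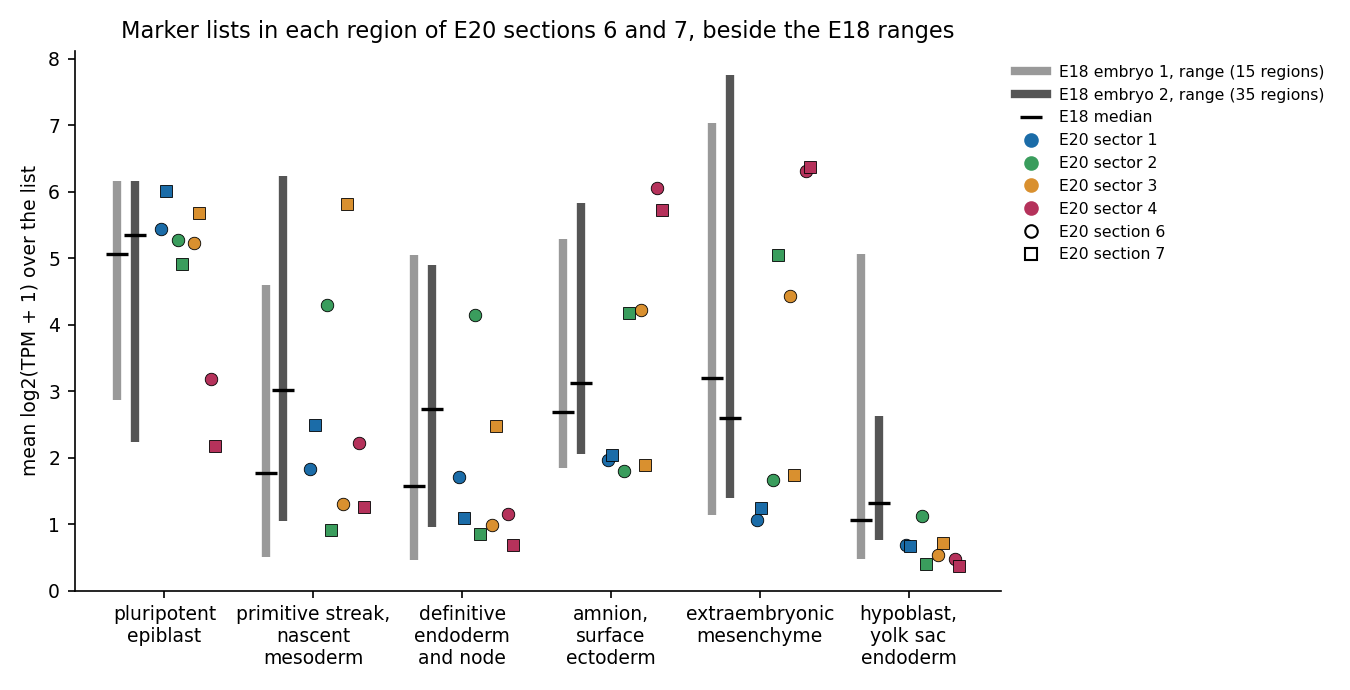
Mean log2(TPM + 1) of 6 marker lists (y axis) in each of the 8 regions of E20 sections 6 and 7 (coloured points, colour for sector, circle or square for section), beside the range and median of the 15 and 35 regions of E18 embryos 1 and 2 (grey bars and black ticks). The sector 4 points are lowest for epiblast genes and highest for amnion and mesenchyme genes, and 1 region of each section, sector 2 of section 6 and sector 3 of section 7, is high for streak genes.

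SOX2 showed this split. Its TPM was 49.8, 11.7, 69.1 and 7.25 in sectors 1 to 4 of section 6 and 74.3, 81.4, 14.2 and 7.85 in those of section 7. E18 embryo 1 ranged from 2.03 to 135 (median 24.1) and embryo 2 from 0 to 256 (median 32.7). The sector 4 regions were the lowest, and all 8 regions lay inside the range of both E18 embryos. The difference of the means was -0.18 from embryo 1 and 0.06 from embryo 2, the second of which was -0.14 once the mitochondrially encoded genes were removed.

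EOMES, which the streak needs to form mesoderm and endoderm, had a TPM of 30.8, 150.02, 45.96 and 20.4 in section 6 and 149, 9.63, 505 and 8.9 in section 7. In embryo 1 it ranged from 0 to 166 (median 15.96) and in embryo 2 from 0.31 to 562 (median 109). Sector 3 of section 7 was the highest of the E20 regions. It stood above embryo 1 and below the highest region of embryo 2. The mean difference had opposite signs, 1.69 from embryo 1 and -0.45 from embryo 2, so EOMES did not differ from E18 in 1 direction.

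H2AC14 was 11.9, 46.7, 22.3 and 9.72 TPM in section 6 and 24.5, 20.1, 29.2 and 6.71 in section 7. The range was 2.32 to 80.3 (median 30.5) in embryo 1 and 31.3 to 491 (median 202) in embryo 2. All 8 E20 regions fell within embryo 1, and 7 of 8 lay below every region of embryo 2, the exception being sector 2 of section 6. The difference was -0.65 from embryo 1 and -3.19 from embryo 2, while the E18 embryos themselves differed by 2.54. MYO19, a myosin of mitochondria, had the same form, with differences of -0.76 from embryo 1 and -3.05 from embryo 2. Neither gene was lower than each E18 embryo by 1 log2 unit.

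To separate what differed from both E18 embryos from what differed between them, a gene was called when its mean over the 8 E20 regions lay at least 1 log2 unit, a factor of about 2 in TPM + 1, above the mean of each E18 embryo, or below it. Of 15456 genes with 1 TPM or more in at least 8 of the 58 regions, 61 were higher than each embryo (0.395%) and 158 were lower (1.02%). Set against embryo 1 alone, 332 genes were higher and 358 lower by that amount. Against embryo 2 alone, 213 were higher and 2023 lower. For comparison, 1662 genes were higher and 207 lower in embryo 2 than in embryo 1. The median difference of all genes was -0.01 from embryo 1 and -0.42 from embryo 2. Over all genes, 17.9% lay above both embryos and 44.9% below both, by any amount, and 33.8% and 36.2% after quantile normalization. Among the 219 called genes, 204 differed from the nearer embryo by more than the E18 embryos differed from each other. This holds by rule for any called gene whose E18 embryos differ by less than 1, so the count supports nothing.

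The balance of higher and lower genes moved with the scaling. After quantile normalization, which gives each region the same distribution of values, 130 genes were higher and 56 lower. With the mitochondrially encoded genes removed and the rest rescaled, 57 were higher and 350 lower. The share of higher genes among those called was 27.9% as deposited and 69.9% after quantile normalization. Under quantile normalization the median gene differed by -0.01 and -0.02, and without the mitochondrial genes by -0.02 and -0.70. The called genes named below kept their direction in these scalings. Genes first named under other observations are covered there, and some of them also lost their call. Among the rest, COL4A2, KDR, PECAM1, ESAM, PDGFRA, PGF, GZMB, H2AC21, DLL3, ALDH1A1, PRC1, LGR5, REC114, LASP1, TDRD6 and TLN2 fell short of 1 log2 unit from 1 or both embryos after quantile normalization. Without the mitochondrial genes MIXL1 and MYBPHL did. Without both sector 4 regions, a version added after the data were seen, 83 genes were higher and 303 lower.

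**Figure D2:**
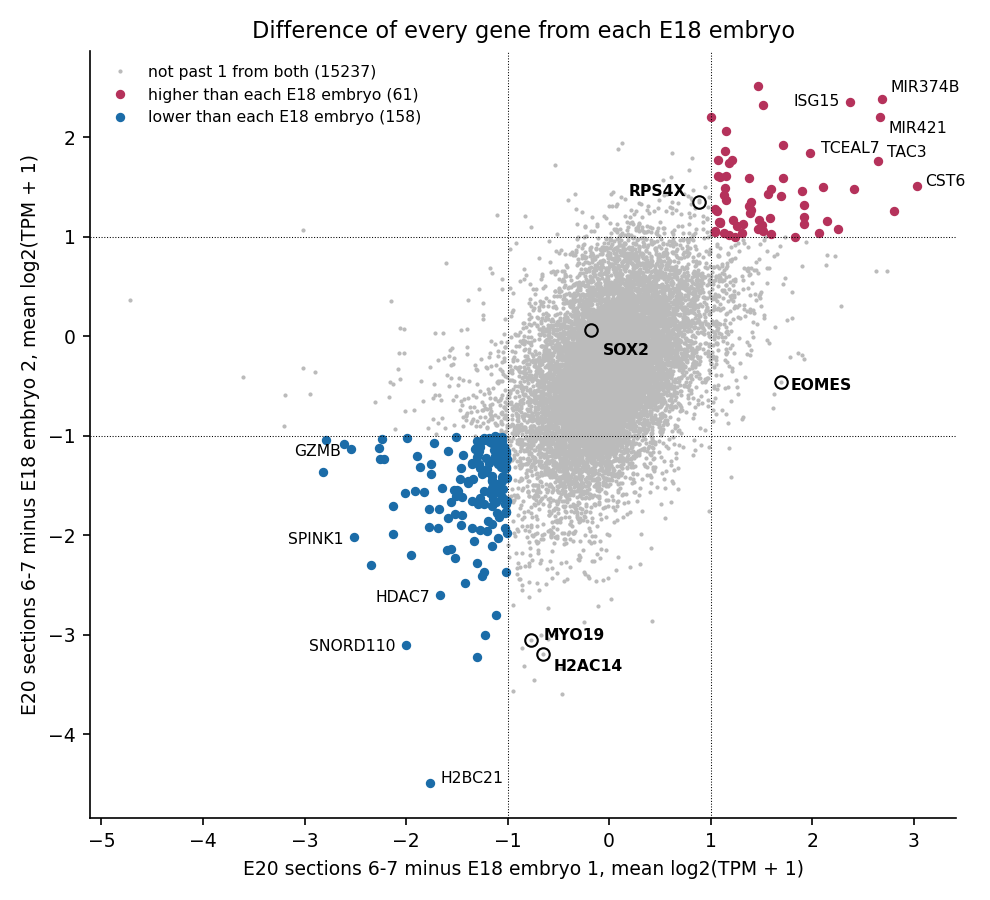
Difference of the mean log2(TPM + 1) of the 8 E20 regions from the mean of E18 embryo 1 (x axis, 15 regions) and of E18 embryo 2 (y axis, 35 regions), 1 point per gene for 15456 genes; dotted lines mark a difference of 1. The 61 genes higher than each embryo (red) are at the upper right and the 158 lower genes (blue) at the lower left, while H2AC14 and MYO19 lie far below 0 for embryo 2 only.

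The genes just past the threshold were SVIP, MYBPHL and PRSS27 on the higher side, and EIF1AX, PPP1R1A and SLC66A1 were just short of it. On the lower side TDRD6, LASP1 and TLN2 were inside and MAP3K3, CEP112 and TRPA1 outside, all at the threshold after rounding. SVIP, LASP1 and TLN2 lost their call without the E18 region rich in maternal genes.

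RPS4X, an X-linked gene for a protein of the small ribosomal subunit, was the only gene whose 8 E20 regions all lay above all 50 E18 regions, which is 0.00647% of the genes. Its TPM was 3023, 3359, 3578 and 4842 in sectors 1 to 4 of section 6 and 3314, 3367, 2891 and 4857 in those of section 7. In embryo 1 it was 986 to 2765 (median 2000.3) and in embryo 2 834 to 2360.4 (median 1423). The log2 mean was 11.81 ± 0.28 (SD, n = 8 regions) at E20 against 10.93 ± 0.34 (n = 15) and 10.46 ± 0.44 (n = 35). The difference was 0.88 from embryo 1 and 1.35 from embryo 2, so it did not reach 1 log2 unit from embryo 1 and is not among the 61 genes. After quantile normalization, or without the mitochondrially encoded genes, no gene lay wholly above. No gene had all 8 regions below all 50 E18 regions (0%).

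The 15 genes with the largest difference on the higher side, among those with a mean of 10 TPM or more in a group, included secreted peptides, a protease inhibitor and a receptor modulator. ISG15, a ubiquitin-like modifier that interferon induces, had a TPM of 44.99, 139.7, 15.3 and 27.1 in section 6 and 12.4, 13.6, 10.9 and 6.82 in section 7, against 0 to 53.5 (median 5.8) in embryo 1 and 0 to 21.6 (median 3.68) in embryo 2. The log2 mean was 4.46 ± 1.33 (SD, n = 8 regions) at E20, 2.08 ± 1.88 (n = 15) in embryo 1 and 2.10 ± 1.51 (n = 35) in embryo 2. Sector 2 of section 6 was highest, and only this region lay above both E18 ranges. With section 7 alone the difference from the nearer embryo was 1.44, and with section 6 alone 3.28.

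TCEAL7, an X-linked member of a family related to transcription elongation factors, was even across the E20 regions. It stood at 21.3, 14.6, 8.74 and 8.1 TPM in section 6 and 11.5, 20.996, 13.3 and 11.4 in section 7. Embryo 1 had 0 to 18.02 (median 3.85) and embryo 2 0 to 22.3 (median 3.93). Every E20 region lay above both E18 medians, the groups overlapped, and the mean difference was 1.98 from embryo 1 and 1.85 from embryo 2. TCEAL1, of the same family, was also higher, by 1.398 from embryo 1 and 1.35 from embryo 2, with 17.7 to 36.7 TPM at E20.

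Among the widest differences were microRNA loci. MIR374B was 4.21, 14.4, 4.46 and 36.4 TPM in section 6 and 22.8, 3.28, 7.35 and 8.26 in section 7, against 0 to 12.2 (median 0) in embryo 1 and 0 to 19.005 (median 0.22) in embryo 2. MIR421 was 8.78, 18.7, 3.81 and 42.4 in section 6 and 7.01, 4.49, 15.2 and 22.6 in section 7, against 0 to 17.5 (median 0.454) and 0 to 21.7 (median 1.8). Both lie within the long noncoding RNA gene FTX on the X chromosome. These libraries hold polyadenylated RNA, so the values are of reads over the locus and not of the mature microRNA, and a short locus gives a high TPM from few reads. Of 381 loci of microRNAs and small nucleolar or Cajal body RNAs tested, 7 were higher and 7 lower than each embryo, beside 0.395% and 1.02% of all genes. SNORD110 and SNORD114-14, loci of small nucleolar RNAs, were on the lower side, by -1.996 and -3.10 and by -1.82 and -1.56.

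Genes of secreted peptides were higher in different regions. NPY, which encodes neuropeptide Y, had 46.8, 48.4, 37.3 and 20.96 TPM in section 6 and 123, 31.8, 161 and 40.96 in section 7, all 8 above the embryo 2 median of 11.1 and 7 of 8 above the embryo 1 median of 29.02. GALP, which encodes galanin-like peptide, was highest in the sector 1 regions, with 48.1 and 33.1 TPM, above the E18 maxima of 11.01 and 13.4, and was 2.23 and 0 in the sector 4 regions. TAC3, the neurokinin B precursor, had the opposite pattern, with 463 and 451 TPM in the sector 4 regions and 12.4 to 54.7 elsewhere. CPE, carboxypeptidase E, which trims peptide hormones, reached 708 and 769 in sector 4.

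Several of the 15 were carried by the sector 4 regions. Without them TAC3 fell short of 1 log2 unit, at 0.73, and so did MCUB, an inhibitory subunit of the mitochondrial calcium uniporter, at 0.74. CST6, a cystatin that inhibits cysteine proteases, went to 0.16 and CPE to 0.55. CST6 also fell short without either sector 4 region alone, at 0.95 without that of section 6 and 0.91 without that of section 7. The other 11 genes remained at 1 or more. These included SHISA2, which retains FGF and WNT receptors inside the cell, at 96.97, 457, 49.4 and 69.01 TPM in section 6 and 76.96, 36.6, 35.6 and 79.4 in section 7, and YPEL1 at 14.2 to 80.99 TPM. ANXA10, an annexin, ZG16, a secreted lectin, and PLAAT3, a phospholipase and acyltransferase, were also among them. They differed from embryo 1 and embryo 2 by 1.51 and 2.33, by 2.41 and 1.48 and by 1.57 and 1.43. With section 7 alone GALP, ANXA10 and SHISA2 fell short, at 0.73, 0.87 and 0.96, and with section 6 alone NPY did, at 0.99.

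**Figure D3:**
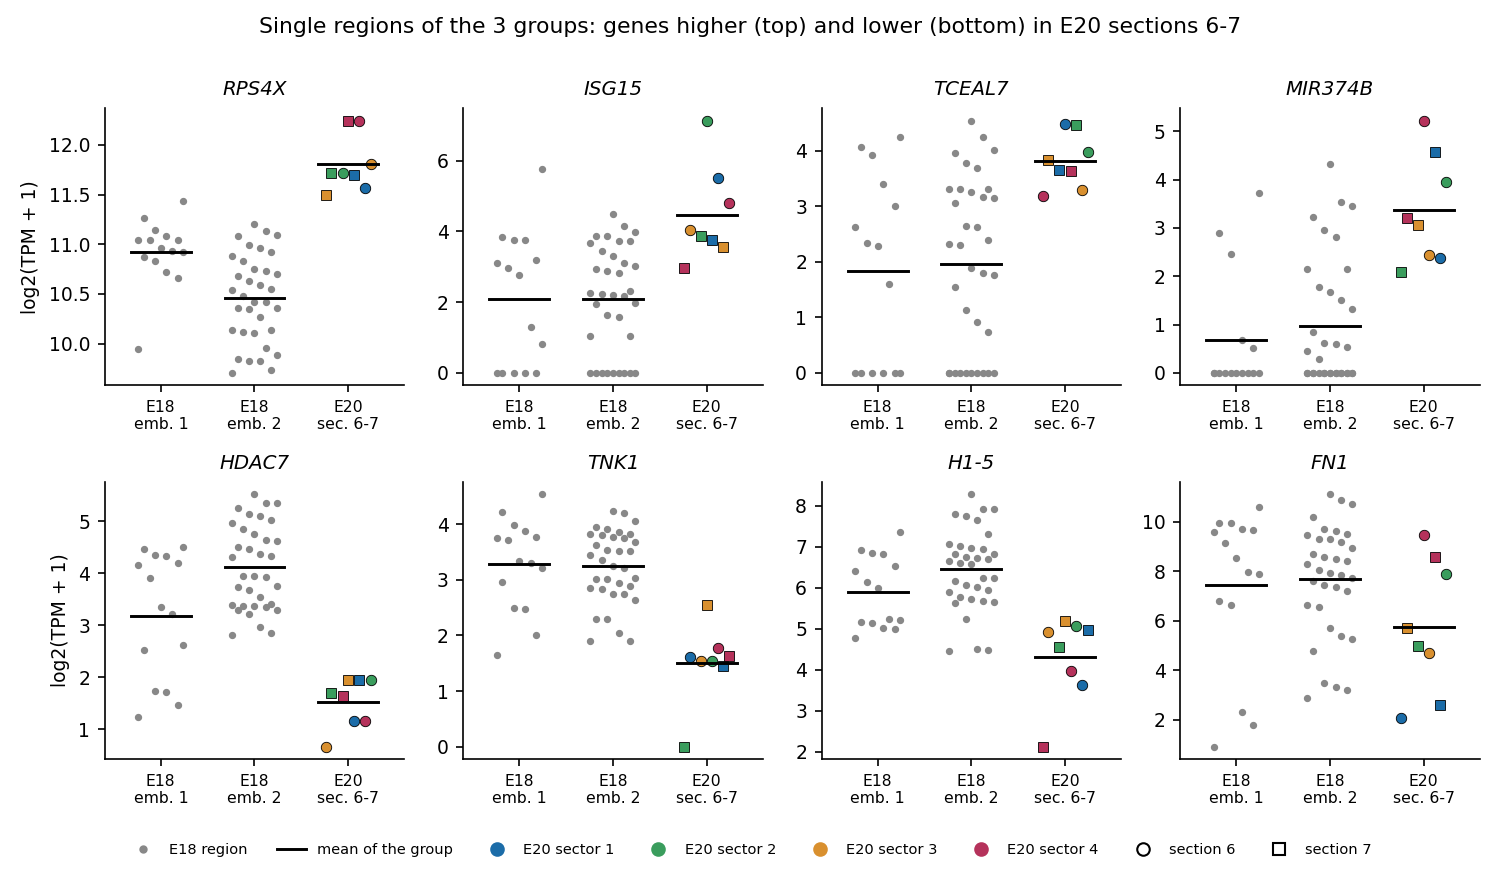
log2(TPM + 1) of 8 genes (y axes, scaled per gene) in single regions of E18 embryo 1 (n = 15), E18 embryo 2 (n = 35) and E20 sections 6 and 7 (n = 8, coloured by sector), with the mean of each group as a line. For RPS4X the groups do not overlap; ISG15, TCEAL7 and MIR374B are higher at E20 with overlap; HDAC7, TNK1, H1-5 and FN1 are lower with overlap.

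On the lower side, 1 of the 15 genes with the largest differences encodes a matrix protein. This was FN1, fibronectin, on which migrating mesoderm moves. It had 3.22, 235, 24.95 and 712 TPM in section 6 and 4.99, 30.7, 51.3 and 377 in section 7. It ranged from 0.874 to 1558 (median 370.1) in embryo 1 and from 6.25 to 2203 (median 266) in embryo 2. The sector 1 regions were lowest and the sector 4 regions highest, and all 8 values lay within the E18 range of embryo 1. The mean difference was -1.68 from embryo 1 and -1.93 from embryo 2, and -2.78 from the nearer embryo without the sector 4 regions. The basement membrane collagens COL4A1 and COL4A2 were 0.765 to 15.9 and 1.77 to 24.5 TPM, with differences of -1.64 and -1.52 and of -1.11 and -1.49. These 3 genes were the called members of the 21 of the mesenchymal transition and adhesion list, of which 13 lay below both embryos, beside 1.02% of all genes lower and 44.9% below both. The list's median differences were -0.20 and -0.56, beside -0.01 and -0.42 for all genes.

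The yolk sac and endoderm genes were low, and since the sections were chosen on such genes this supports nothing. TTR, transthyretin, was 0 to 1.19 TPM, FGB, fibrinogen, 0 to 0.321, and HNF4A, a regulator of endoderm and liver genes, 0 to 1.16. Of 18 definitive endoderm and node genes 13 lay below both embryos, and of 20 yolk sac genes 19 did and 3 were lower, beside 44.9% below both and 1.02% lower over all genes. Of the yolk sac genes APOC3, FGA and SERPINA1 were listed at 0 in all 8 regions. Without the E18 region rich in maternal genes, HNF4A lost its call, at -0.81 from embryo 1, while TTR went to -1.42 and FGB from -1.49 to -1.06. SPINK1, a trypsin inhibitor, MT1M, a metallothionein, and GZMB, a protease of cytotoxic lymphocytes, were listed at 0 in all 8 E20 regions and lower than each embryo. GZMB was 1219 TPM in that E18 region and 41.1 at most in the other regions of embryo 1, with a difference of -1.99 from embryo 1 without it. MT1M was 360 TPM in that region and 7.82 at most in the others of embryo 1. Its difference from embryo 1 went from -2.01 to -1.55 without that region.

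Of 17 blood and endothelium genes tested 3 were lower, all endothelial, and none was higher, beside 1.02% and 0.395% of all genes. They were KDR, the VEGF receptor of endothelial progenitors, at 0.35 to 17.2 TPM (-1.08 and -1.22), PECAM1 at 0 to 4.23 (-1.30 and -1.05) and ESAM at 0 to 9.57 (-2.26 and -1.23). The list's median differences were 0.06 and -0.69, beside -0.01 and -0.42 for all genes. After quantile normalization none of the 3 was called. Without the E18 region rich in maternal genes PECAM1 went to -1.02 from embryo 1. PDGFRA, a receptor of mesoderm and mesenchyme, was the 1 called gene of 22 of later mesoderm, at -1.05 and -1.45, and NES, nestin, the 1 of 13 anterior ectoderm and neural genes, at -1.10 and -1.54. Of the trophoblast list, PGF, placental growth factor, was lower, the 1 of 11, at -1.28 and -1.11.

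Several regulators were low in nearly every region. HDAC7, a class IIa histone deacetylase, had 1.23, 2.85, 0.584 and 1.23 TPM in section 6 and 2.85, 2.23, 2.86 and 2.12 in section 7, against 1.34 to 21.6 (median 9.13) in embryo 1 and 6.03 to 44.7 (median 14.5) in embryo 2. All 8 regions lay below all 35 of embryo 2, and 3 of them below all 15 of embryo 1. The log2 means were 1.52 ± 0.48 (SD, n = 8 regions), 3.18 ± 1.21 (n = 15) and 4.12 ± 0.81 (n = 35). TNK1, a tyrosine kinase, was 2.04, 1.89, 1.92 and 2.43 in section 6 and 1.73, 0, 4.84 and 2.09 in section 7, against 2.12 to 22.2 (median 9.07) and 2.71 to 17.8 (median 9.25), and 6 of 8 regions lay below all 50 E18 regions. ZBTB40, a zinc finger protein, had 1.36, 1.81, 1.78 and 2.23 and 1.33, 2.31, 5.83 and 2.74 TPM, and 7 of 8 regions lay below all E18 regions, the exception being sector 3 of section 7.

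CREB3L2, a transcription factor of secretory cells, was 0 to 15.9 TPM with differences of -1.77 and -1.92, and ATP2B4, a calcium pump of the plasma membrane, 0.857 to 16.4 with -1.56 and -2.13. LGR5, a receptor that strengthens WNT signalling, was 0 to 17.5 TPM, highest in sectors 2 of section 6 and 3 of section 7, where the streak genes were also highest, with differences of -1.53 and -1.55. REC114, a meiotic recombination gene, was 0 to 3.22 TPM with -1.91 and -1.55. The last 2 fell short of 1 log2 unit after quantile normalization, at -0.89 for LGR5 and -0.93 for REC114, while the other 13 of the 15 largest did not.

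Histone genes were followed as lists because H2AC14 was given as a marker. Of 66 replication-dependent histone genes listed 20 were in the table and 19 passed the filter on low values. Among these 19, 4 were lower than each embryo, none was higher and 14 lay below both, beside 1.02%, 0.395% and 44.9% of all genes. After quantile normalization 11 lay below both, beside 36.2% of all genes. The list had median differences of -0.69 and -0.44, beside -0.01 and -0.42 for all genes. After quantile normalization the list's medians were -0.54 and -0.14, beside -0.01 and -0.02 for all genes. H1-5, a linker histone, had 11.4, 32.6, 29.3 and 14.6 TPM in section 6 and 30.2, 22.6, 35.6 and 3.36 in section 7, against 26.2 to 162 (median 62.7) in embryo 1 and 20.9 to 309 (median 96.3) in embryo 2. The log2 means were 4.30 ± 1.04 (SD, n = 8 regions), 5.90 ± 0.87 (n = 15) and 6.45 ± 0.97 (n = 35). Sector 4 of section 7 was the lowest of all, and 3 of 8 E20 regions lay below all 50 E18 regions. H1-4 had 9.59, 81.96, 93.4 and 37.02 and 66.9, 31.3, 108 and 18.6, with differences of -1.45 and -1.80. H2BC21 was listed at 0 in 4 regions and was 2.66 TPM at most, with differences of -1.76 and -4.49, and H2AC21 was 0 to 10.1, with -1.10 and -2.02.

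Other histone genes differed less. H2AC20, the highest of the list, differed by -0.80 and -0.23, and H2BC9 by 0.12 and 0.23. Of 9 replication-independent histone genes none was called, with medians of -0.11 and 0.35, and H2AZ1, a variant histone, was 225 to 3874 TPM, with 0.05 and 0.50, the second of which was -0.06 after quantile normalization. Of 12 genes that process histone mRNA none was called either, with medians of 0.07 and -0.04. The mRNAs of replication-dependent histones mostly end without a poly(A) tail, so in libraries of polyadenylated RNA their values are of a minor fraction. H2BC21 and H1-5 remained lower by 1 log2 unit in each scaling tried, and 3 of the 19 replication-dependent genes were lower by that amount after quantile normalization.

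The listed genes of the cell cycle did not differ by 1 log2 unit from each embryo. Of 22 S phase genes none was called, with median differences of 0.03 and 0.06. Of 20 genes of G2 and M phase none was called, with medians of -0.46 and -0.50, beside -0.01 and -0.42 for all genes. Of these 20, 16 lay below both embryos. The same number did so after quantile normalization, and the shares of all genes below both were 44.9% and 36.2%. The G2 and M level was 6.23, 5.38, 5.51 and 4.38 in section 6 and 6.12, 5.46, 6.20 and 3.27 in section 7, lowest in the sector 4 regions. Outside the lists, the mitotic genes ASPM and PRC1 were lower, at -1.29 and -1.69 and -1.04 and -1.53. PRC1 lost its call without the E18 region rich in maternal genes, at -0.996 from embryo 1.

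Of 21 listed streak genes tested, 1 lay above both E18 embryos and 6 below both, beside 17.9% and 44.9% of all genes. MIXL1, a homeobox gene of the streak and endoderm, was higher, and DLL3, a Notch ligand of the paraxial mesoderm, was lower. These were the 2 called, beside 0.395% higher and 1.02% lower among all genes. MIXL1 had 13.5, 333, 22.7 and 40.5 TPM in section 6 and 46.7, 3.2, 933 and 16.6 in section 7, against 0 to 550.2 (median 8.87) in embryo 1 and 0 to 699 (median 13.04) in embryo 2. Its highest region, sector 3 of section 7, lay above all E18 regions, and the difference was 2.07 from embryo 1 and 1.04 from embryo 2. DLL3 was 4.86, 25.95, 1.47 and 1.09 and 6.29, 3.06, 153 and 0.599, against 0 to 83.02 (median 16.8) and 0.846 to 158 (median 12.9), with -1.03 and -1.26, and lost its call without the E18 region rich in maternal genes, at -0.89. TBXT, brachyury, was 0 to 19.8 in section 6 and 0 to 63.9 in section 7, with differences of 0.61 and -1.25. The list's medians were 0.29 and -1.08, beside -0.01 and -0.42 for all genes. DLL3 also fell short of 1 log2 unit after quantile normalization, and MIXL1 without the mitochondrially encoded genes.

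The 2 streak regions were not alike. Sector 2 of section 6 had the node and endoderm genes, with a list level of 4.15 against 2.48 in sector 3 of section 7. FOXA2, a factor of node and endoderm, was 100.2 TPM in the first, the highest of the 8 regions. NODAL, a ligand of the streak, was 61.3 in the first and 22.3 in the second. MESP1, which marks nascent mesoderm, was 0.302 and 98.8, and TBX6, a factor of paraxial mesoderm, 6.82 and 35.5. DKK4, a secreted WNT inhibitor, was 1035 and 659 TPM there and 0.359 to 1035 over the 8 regions. It was the 1 of 27 WNT pathway genes called, higher by 2.26 and 1.08. Each of these is 1 region of 5 to 50 cells, so the differences between them have no replicate.

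Several lists held no called gene. None of 19 epiblast genes, 18 amnion genes, 20 mesenchyme genes, 12 NODAL, 19 BMP, 19 FGF or 27 HOX genes was called. PFKP, a glycolytic enzyme, was lower, the 1 of 18 glycolysis genes, at -1.50 and -1.54, and ALDH1A1, which makes retinoic acid, the 1 of 14 of that pathway, at -1.16 and -1.46. ALDH1A1 fell to -0.99 from embryo 1 without the region rich in maternal genes. Of the 28 lists together, 432 different genes were tested, 2 of which were higher and 20 lower than each embryo. That is against 0.395% higher and 1.02% lower among all genes, but the lists overlap the genes on which the sections were chosen, so this is a description.

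Differences among the 8 regions were not used to choose the sections, and these were tested. With limma and the section as a block, 126 of 12239 genes differed among sectors at a Benjamini-Hochberg adjusted p under 0.05 (1.03%). Of these 92 were highest in sector 4, 31 in sector 1, 2 in sector 3 and 1 in sector 2. The filter asked for 1 TPM in 2 of the 8 regions, the number in a sector. A gene could thus enter through its highest sector alone, and without a filter only 1 gene passed. The regions came from 1 embryo, so these p-values measure only the spread between these regions. That equal sector numbers mark like positions in both sections is not stated by the labels. Across 7987 genes, the deviations of the regions from their mean correlated at 0.71 between the sector 4 regions and 0.44 between the sector 1 regions, but at -0.40 between the sector 2 and -0.34 between the sector 3 regions. These are correlations across genes, which are not independent. The sector 4 regions had 10950 and 10803 genes at 1 TPM or more, against 10046 to 10815 in the other 6 regions. Without sector 1 or without sector 4 no gene passed, and without sector 2 or 3 the counts were 1391 and 986. The calls thus depended on the filter and on sectors 1 and 4, and the adjusted p-values given below carry these limits.

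In sector 4 the genes that passed included amnion factors. TFAP2C, a factor of amnion, trophoblast and germ cells, was 86.3 and 112 TPM there against 11.6 at most elsewhere (limma adjusted p = 0.0248). GATA3, another amnion and trophoblast factor, had 1.86, 29.4, 36.8 and 221 in section 6 and 0.78, 91.2, 6.35 and 288 in section 7 (adjusted p = 0.0415). Of 18 amnion genes these 2 passed, beside 1.03% of all genes tested. Both were highest in sector 4, as were 92 of the 126 genes that passed. GABRP, a chloride channel subunit of amnion, was 455 and 436 TPM there and 12.6 or less elsewhere, with an adjusted p of 0.0509, just short of the threshold. None of 20 mesenchyme genes passed, and their level was also high in sector 3 of section 6 and sector 2 of section 7. COL3A1, a collagen of mesenchyme, was 0.222, 0.828, 177 and 1032 and 2.86, 348, 0.983 and 1309 (adjusted p = 0.21).

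The 6 largest sector 4 genes by difference from the other sectors were MIR675, CD82, XAGE3, PCP4, NTRK2 and SNORD113-9. MIR675, a locus inside the imprinted gene H19, was 983 and 882 TPM against 66.6 at most elsewhere (adjusted p = 0.0425). CD82, a tetraspanin of the cell surface, was 149.9 and 162 against 5.34 at most (adjusted p = 0.0326). NTRK2, a neurotrophin receptor, was 73.6 and 88.96 against 2.15 (adjusted p = 0.0264). DLK1, an imprinted signalling protein, was 303 and 146 (adjusted p = 0.0297). FOS, an immediate early gene, was 171 and 109.6 against 7.46 (adjusted p = 0.0264). MMP2, CDH11, EPCAM and FN1 were the 4 of 21 adhesion and transition genes that passed, beside 1.03% of all genes tested. All 4 were highest in sector 4, as were 92 of the 126 genes that passed.

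Some epiblast genes were among the 31 highest in sector 1. TDGF1, the NODAL coreceptor, had 158, 194, 129 and 7.14 TPM in section 6 and 242, 136, 143 and 2.35 in section 7 (adjusted p = 0.0217), so the sector 4 regions were far lower than the other 6. USP44, a deubiquitinase of pluripotent cells, was 105 and 127 in sector 1 and 46.05 or less elsewhere (adjusted p = 0.0292). SFRP2, a secreted WNT antagonist, was 72.1 and 75.5 in sector 1 and listed at 0 in both sector 4 regions (adjusted p = 0.0217). GALP, described above as higher than E18, was among them (adjusted p = 0.0422). Of 19 epiblast genes 4 passed, beside 1.03% of all genes tested. Of these 4, 3 were highest in sector 1, as were 31 of the 126 genes that passed, and ZIC2 in sector 3 (limma adjusted p = 0.0402). Of the 126 sector genes, 6 were also higher and 2 lower than each E18 embryo, beside 0.395% and 1.02% of all genes.

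**Figure D4:**
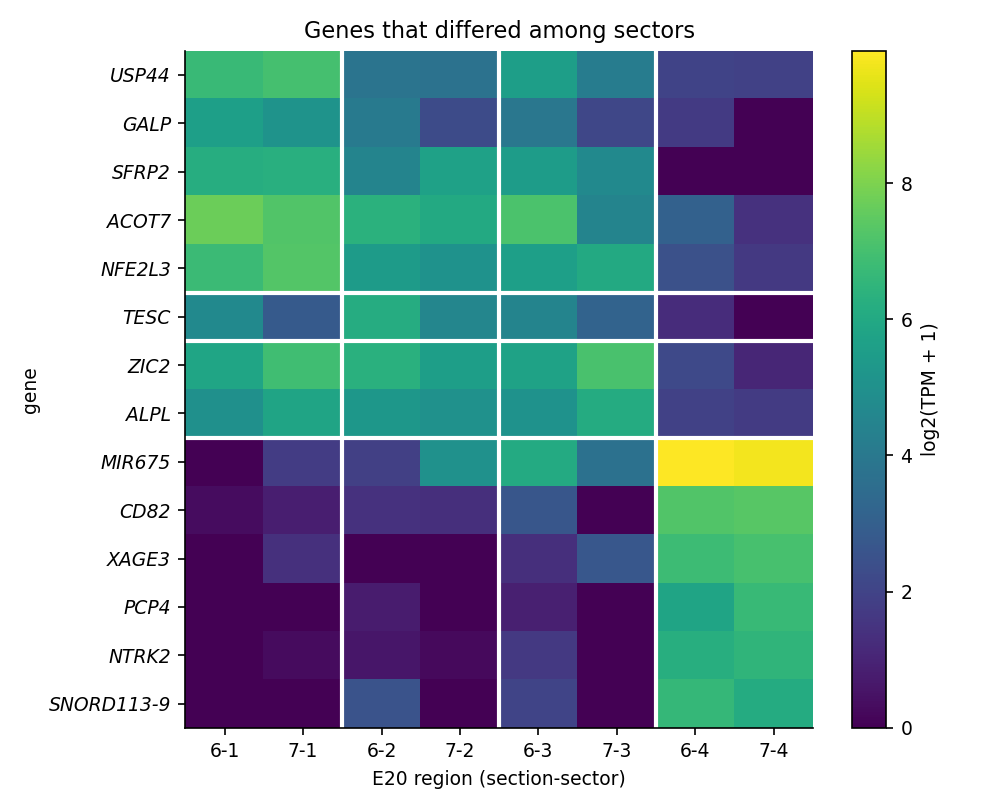
log2(TPM + 1) (colour scale) of named genes that differed among sectors (rows) in the 8 E20 regions (columns, section and sector, grouped by sector). The first 5 genes are highest in sector 1, TESC, ZIC2 and ALPL are lowest in both sector 4 regions, and the genes from MIR675 down are highest in both sector 4 regions.

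EOMES, TBXT and SOX2 did not pass the sector test (limma adjusted p = 0.452, 0.826 and 0.286), and the streak regions bear different sector numbers in the sections. None of the 21 streak genes passed, beside 1.03% of all genes tested. With limma and the sector as a block, no gene passed the test between section 6 and section 7 (0%). The smallest adjusted p was 0.0561, that of SF1, and 1317 genes had an unadjusted p under 0.05. The block pairs regions by sector number, and the sector 2 and sector 3 pairs correlated at -0.40 and -0.34. This test therefore cannot show that the sections were alike.

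Both sector 4 regions also lay above all 50 E18 regions for 319 of 15456 genes (2.06%). The pairs of sectors 1, 2 and 3 did so for 33 (0.214%), 5 (0.0323%) and 11 (0.0712%). The genes with the widest gaps, named after their values were seen, were TAC3, CST6, EPAS1, CPE and VTCN1. TAC3 was 463 and 451 TPM against 78.6 in the highest E18 region. CST6 was 704 and 822 against 155. EPAS1, a hypoxia-inducible factor, was 803 and 781 against 197. VTCN1, an immune checkpoint ligand used as a marker of amnion and trophoblast, was 758 and 965 against 202. GABRP, with 455 and 436 TPM, also lay above its E18 maximum of 201.

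Within this set were genes of several lists. HOXB2, a homeobox gene, was 75.9 and 112 TPM in the sector 4 regions against 52.8 and 23.3 at most in the E18 embryos, while it was listed at 0 in sectors 1 and 2 of section 6. INSL4, an insulin-like peptide of trophoblast, was 317 and 274 against 125 and 118. ANXA1, an annexin on the mesenchyme list, was 259 and 152 against 102 and 104. The trophoblast list as a whole was 3.48 and 3.65 in the sector 4 regions, against at most 4.97 in E18 embryo 1 and 3.71 in embryo 2. Its summed TPM in sector 4 was 512 and 582, against at most 5217 and 349 in those embryos. Of its 11 genes tested, GCM1 and SIGLEC6 were listed at 0 in all 8 E20 regions. CGA was 6.97 and 128 TPM, against up to 4737 in embryo 1. The part of trophoblast in these levels was not tested.

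**Figure D5:**
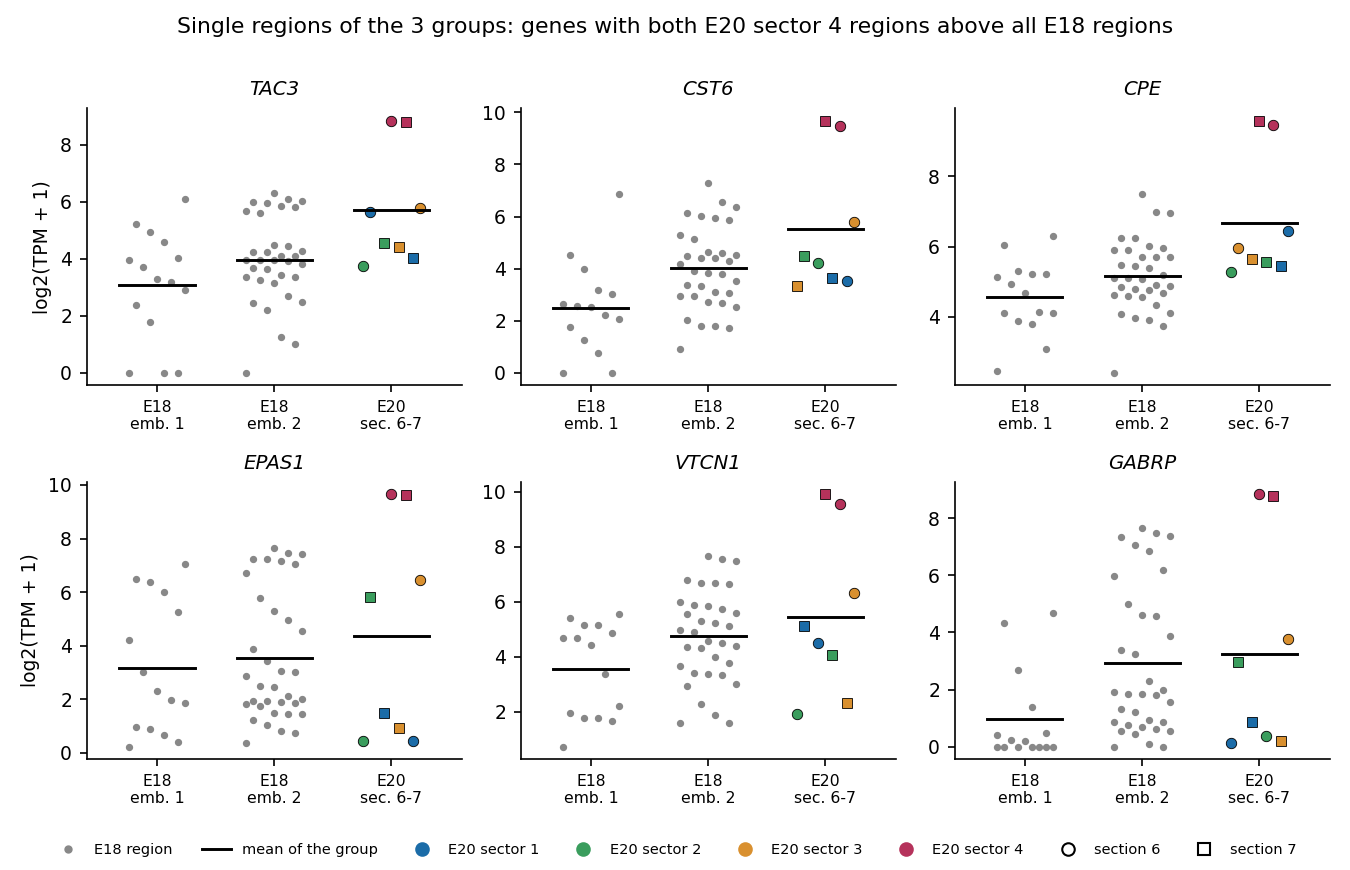
log2(TPM + 1) of 6 genes (y axes, scaled per gene) in single regions of E18 embryo 1 (n = 15), E18 embryo 2 (n = 35) and E20 sections 6 and 7 (n = 8, coloured by sector), with group means as lines. Both sector 4 regions lie above every E18 region in each panel, while the other 6 E20 regions overlap the E18 regions.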

How the data were processed

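RNA from laser-captured regions of frozen sections was sequenced by Geo-seq, and the authors deposited 1 matrix of TPM values per gene and region. Per the submitters' processing notes fastp, HISAT2 and StringTie were used, with the versions and genome build not given in sources used here. All columns matched a sample by title, and 0 did not. TPM keeps no read counts, so depth and counting error are unknown, and the number of regions and embryos sets the precision. A region of few cells can list an expressed gene at 0.

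Values were analysed as log2(TPM + 1). Genes needed 1 TPM in 8 of the 58 regions, or in 2 of 8 for the sector and section tests, which used limma 3.58.1 in R 4.3.3 (moderated F or moderated tests, Benjamini-Hochberg, threshold 0.05) and were tested on simulated data. Tables and plots used numpy 2.4.6, pandas 2.3.3 and matplotlib 3.10.9. E20 sections 6 and 7 were set against each E18 embryo without a test. The genes named are the 15 with the largest difference from the nearer embryo in each direction among called genes with a group mean of 10 TPM or more, the called members of the gene lists, the markers SOX2, EOMES and H2AC14, genes separating all regions, and the 6 largest sector genes per sector. Other genes were named after their values were seen. The members and the 28 gene lists were chosen with earlier results of these data known. Alternatives were the pseudocount, the filter, quantile normalization, removal of mitochondrially encoded genes, medians, section means, single sections and leaving out each region or embryo. Leaving out both sector 4 regions, or sector 5 of section 3 of E18 embryo 1, was added after the data were seen. Sequences and coordinates were not used here, and some genes that meet the naming rule are not reported here.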

Additional observations from a re-analysis of the deposited data

Results flagged for a closer look

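Dixon's criterion was applied to the 8 regions for 60 genes and lists, and it marks about 1 in 20 groups by chance. It marked 6. ANXA10 was 0.0 in sector 4 of section 7 on the log2(TPM + 1) scale, against 3.09 in the next lowest region. SHISA2 was 8.84 in sector 2 of section 6, one of the regions rich in streak genes, against 6.61 in the next highest. TTR, transthyretin, was 1.13 in that same region against 0.476. TNK1 was 0.0 in sector 2 of section 7 against 1.45, and ZBTB40 was 2.77 in sector 3 of section 7 against 1.90. The list of maternal immune and decidual genes had a mean level of 0.509 in sector 3 of section 6 against 0.826 in the next lowest region.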

How the results depend on the processing

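The counts of genes past the threshold depended on the processing, and the cause was not tested. Against 61 higher and 158 lower genes, a pseudocount of 0.1 gave 187 and 764, quantile normalization 130 and 56, removal of mitochondrially encoded genes 350 lower, medians over regions 286 lower, a threshold of 2 log2 units 3 and 2, section 6 alone 134 and 261, section 7 alone 323 lower, and omission of both sector 4 regions 303 lower. Leaving out 1 E20 region or 1 E18 embryo gave 54 to 332 higher and 144 to 2023 lower genes, both maxima with 1 E18 embryo. Without the E18 region rich in maternal genes 64 were higher and 152 lower. The 1 gene wholly above E18 became 0 after quantile normalization or removal of mitochondrial genes and 3 with section 6 alone, which also put 9 wholly below. Leaving out an E18 embryo gave 2 to 8 wholly above and 1 to 63 wholly below.

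The 126 sector genes became 37 with a pseudocount of 0.1, 1 without a filter, 79 after quantile normalization, 242 for a linear trend in sector number and 274 without the section term, and ranged from 0 to 1391 with 1 sector left out. The section comparison gave 1 gene after quantile normalization and 1 without the sector term. Of 713 recomputed values of 34 named genes 29 moved by more than the spread between regions, and no called gene changed sign. SOX2 and EOMES, which were not called, changed sign under some settings. No paired analysis was possible because the replicate numbers were given in accession order and the sections and sectors of the embryos do not correspond.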

Other observations

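Some further genes of known roles differed from each E18 embryo. They were grouped after their values were seen, so the counts describe and support nothing. Of 17 interferon response genes tested 4 were higher and 8 lay above both embryos, beside 0.395% and 17.9% of all genes. Beside ISG15 these were IRF9, a partner of STAT proteins, at 10.495, 63.5, 22.3 and 24.1 TPM in section 6 and 40.6, 8.22, 41.5 and 19.8 in section 7, IFI6 and EIF2AK2, a kinase that senses double-stranded RNA, which fell short without the mitochondrially encoded genes, at 0.98 from embryo 2. IRF9 differed by 1.401 from embryo 1 and 1.27 from embryo 2. MX1 differed by 0.85 and 0.72, not past 1 from either, while STAT2 was below both, at -0.89 and -2.44.

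Of 12 X-linked genes known to escape X inactivation in human cells, 2 were higher, PNPLA4 and AP1S2, and 6 lay above both embryos, beside 0.395% and 17.9% of all genes. AP1S2 fell short after quantile normalization, at 0.95 and 0.91. DDX3X, an RNA helicase, differed by 0.99 and 0.88 and EIF1AX, an initiation factor, by 1.00 and 1.02. RPS4X, whose groups do not overlap, is 1 of these 12 genes and, like DDX3X and EIF1AX, 1 of the 6 above both. The sample titles give no sex of the embryos, and its part in the values of X-linked genes was not tested.

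Of 13 hedgehog pathway genes tested 3 were lower, among them IHH, a ligand, and the receptor PTCH1, and 11 lay below both embryos, beside 1.02% and 44.9% of all genes, while after quantile normalization none was lower by 1 log2 unit. Of 17 basement membrane and matrix genes 8 were lower and 16 lay below both, against the same shares, and after quantile normalization 4 were lower and 15 lay below both, beside 36.2% of all genes. The 8 lower genes as deposited were FN1, the COL4A genes, COL9A2, PLOD2, LAMA1, NID1 and HAS2. LAMA1, a laminin of the basement membrane, was at -1.59 and -1.15, and NID1, nidogen, at -1.23 and -1.68. HAS2, which makes hyaluronan, was at -1.21 and -1.22.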
